A study of Homo sapiens with 9 samples.

Results

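The genes described here are 50 genes of ribosome biogenesis and RNA polymerase I, taken by symbol from a fixed list, among 41041 genes in the table. All 50 were found, each at 1 Ensembl identifier, and all 50 passed the expression filter (mean of at least 1 FPKM over the libraries). They were sorted by role into 8 genes of the small nucleolar ribonucleoprotein (snoRNP) core, 17 of the small-subunit processome and 40S maturation, 15 of large-subunit assembly, 6 of RNA polymerase I and 4 nucleolar proteins with several roles. The cells are SW480, an established human colorectal cancer line, and every group was kept for 48 h at 1% oxygen. The control group had no further treatment, the SFN group received sulforaphane (SFN, an isothiocyanate of cruciferous vegetables) at 25 µM, and the SFN+5-FU group received sulforaphane with 5-fluorouracil (5-FU, a pyrimidine analogue used against colorectal cancer). Each group holds 3 libraries described as biological replicates of this single line. For the combined group no source used here states a dose of either agent, and these 9 libraries include no group in normal oxygen and none with 5-FU alone.

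Ribosomes are built in the nucleolus. RNA polymerase I transcribes a long precursor of the ribosomal RNAs, snoRNPs guide its ribose methylation and pseudouridylation, and large assemblies of processing factors, helicases and GTPases fold and cut it into the small (40S) and large (60S) subunits. The pathway is a known target programme of the transcription factor MYC, and 5-FU is known to be incorporated into RNA and to disturb the processing of ribosomal RNA. The libraries were made from poly(A) RNA, so the values are mRNA levels of the factors; ribosomal RNA and its processing were not measured.

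Expression is given as FPKM, fragments scaled by transcript length and library size, and each library's values added up to 259184 to 272235. The number of fragments behind them is unknown. In bulk RNA, fewer cells with a transcript and less transcript per cell cannot be told apart. The library labelled SFN replicate 2 stood apart from its group: across the tested genes its Pearson correlation on log2(FPKM + 1) was 0.993 with each SFN+5-FU library and 0.963 and 0.968 with the other SFN libraries, which correlated at 0.990 with each other. It stays in its labelled group, and values without it are given for the counts and for the genes they moved most. The line's epithelial markers were present, with EPCAM at 114 to 144 FPKM and KRT18 at 618 to 936 FPKM over the 9 libraries, while KRT20 (0.05 to 1.39 FPKM) and VIL1 (0.79 to 3.98 FPKM), which mark differentiated enterocytes, were low. The sum of 8 such markers was 2552 to 2596 FPKM in control, 1768 to 2383 with SFN and 1707 to 1722 with SFN+5-FU. Of the markers of other cell types, PTPRC (leukocyte) and CDH5 (endothelial) were listed at 0 in every library. The sum of 4 leukocyte markers was 0.73 to 0.89 FPKM in control, 2.24 to 5.70 with SFN and 5.66 to 9.10 with SFN+5-FU. Most of it was CD68, a lysosomal gene of macrophages, at 0.48 to 8.96 FPKM, while CD3E was at most 0.09 and CD79A at most 0.36 FPKM. The sums of 5 fibroblast markers (1.68 to 2.05, 0.59 to 0.79 and 0.74 to 0.78 FPKM in the same order) and of 3 endothelial markers (0.80 to 0.87, 0.30 to 0.53 and 0.24 to 0.31 FPKM) were lower with treatment. Most of the fibroblast sum was COL1A1 (0.57 to 1.99 FPKM), and PDGFRB was at most 0.10 FPKM. The part of these markers in the results below was not tested.

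Nearly the whole programme was higher with SFN. Of the 50 genes 49 rose and none fell (limma, adjusted p under 0.05 over all 12662 tested genes), and the exception was UBTF, a factor that binds the ribosomal RNA genes. Of all tested genes 27.5% rose and 22.5% fell in this comparison (3478 and 2855 genes). That balance turned with median-of-ratios scaling (2977 rose and 3300 fell) and with mitochondrial transcripts left out (2898 and 3352), where the median of the 50 genes given below was 0.80. Across the 50, the median log2 difference (SFN minus control, on the log2(FPKM + 1) scale) was 0.86, with a range from 0.02 to 1.19, beside 0.05 over all tested genes. On the FPKM scale the group means stood at 1.02 to 2.37 times control with a median of 1.92, and 18 of the 50 were at 2 times or more. With SFN+5-FU 44 of the 50 rose and none fell, where 38.3% of all tested genes rose and 28.0% fell (66.2% in either direction). Their median log2 difference from control was 0.82 (range -0.03 to 1.28), beside 0.10 over all tested genes, and 20 stood at 2 times control or more. These comparisons share their control libraries. Without SFN replicate 2 the counts were 49 and 46, with medians of 0.85 and 0.82, where 30.0% and 43.4% of all tested genes rose and 26.9% and 31.3% fell. Among single genes, leaving it out moved the SFN difference most for UTP20 (0.53 to 0.74), DDX10 (0.48 to 0.65), UTP18 (0.34 to 0.50), NPM1 (0.50 to 0.64), NOP2 (0.91 to 0.79), RRN3 (0.51 to 0.39) and BOP1 (0.83 to 0.95), and FBL went from 0.31 to 0.40.

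The rise was visible in every treated library. Measured against the mean of the control libraries, the 50 genes had a median difference of 0.74, 0.83 and 0.94 in the SFN libraries (replicates 1, 2 and 3) and 0.87, 0.89 and 0.76 in the SFN+5-FU libraries, while the control libraries lay between -0.04 and 0.05. All 50 genes were above their control mean in each SFN library, as were 50, 49 and 49 in the SFN+5-FU libraries. Together the 50 genes made up 0.354%, 0.358% and 0.369% of the summed FPKM in control, 0.605%, 0.610% and 0.660% with SFN and 0.633%, 0.644% and 0.589% with SFN+5-FU. The treated range lies wholly above the control range. For 47 of the 50 genes the lowest SFN value was above the highest control value, a separation that 31.6% of all tested genes showed in that direction. The same held for 47 of the 50 with SFN+5-FU, against 45.5% of all tested genes.

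**Figure D1:**
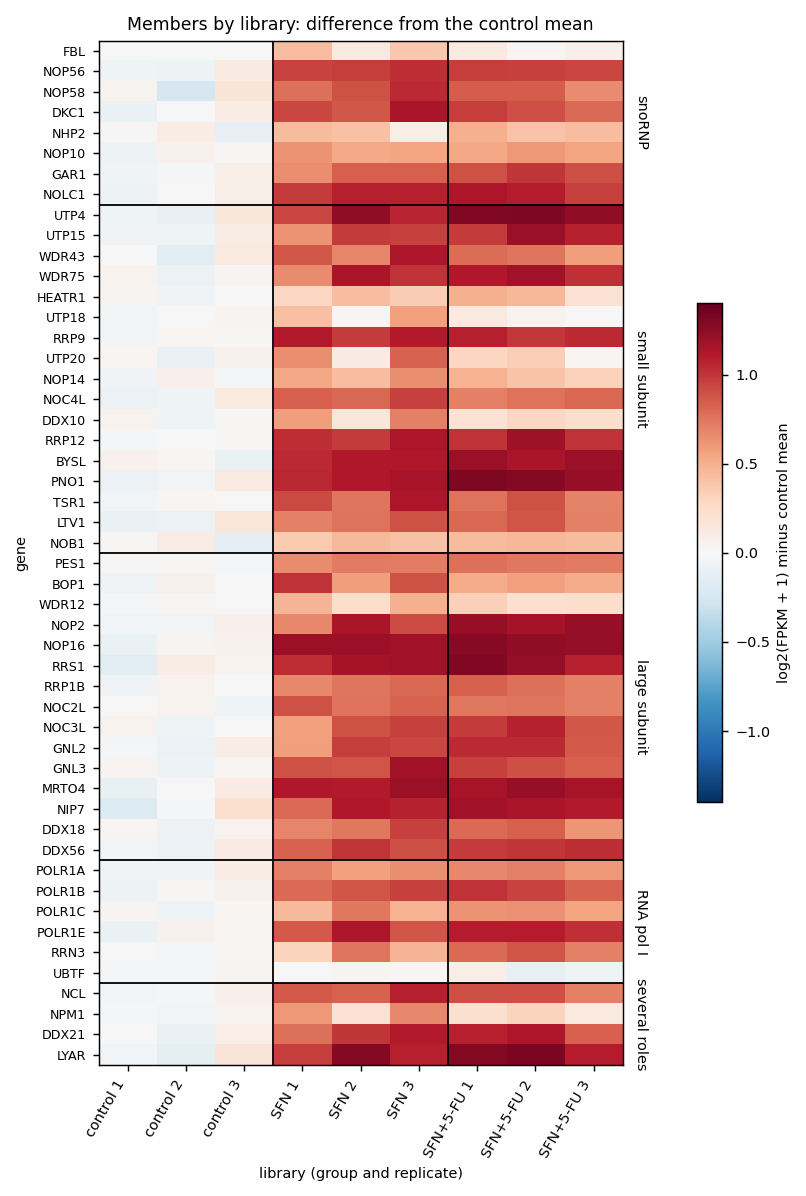
Each row is 1 of the 50 genes and each column 1 library; the colour is log2(FPKM + 1) minus the mean of the 3 control libraries (red higher, blue lower), with horizontal lines between the role groups. Red fills nearly every row of the 6 treated libraries, and UBTF is the row that stays pale throughout.

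**Figure D2:**
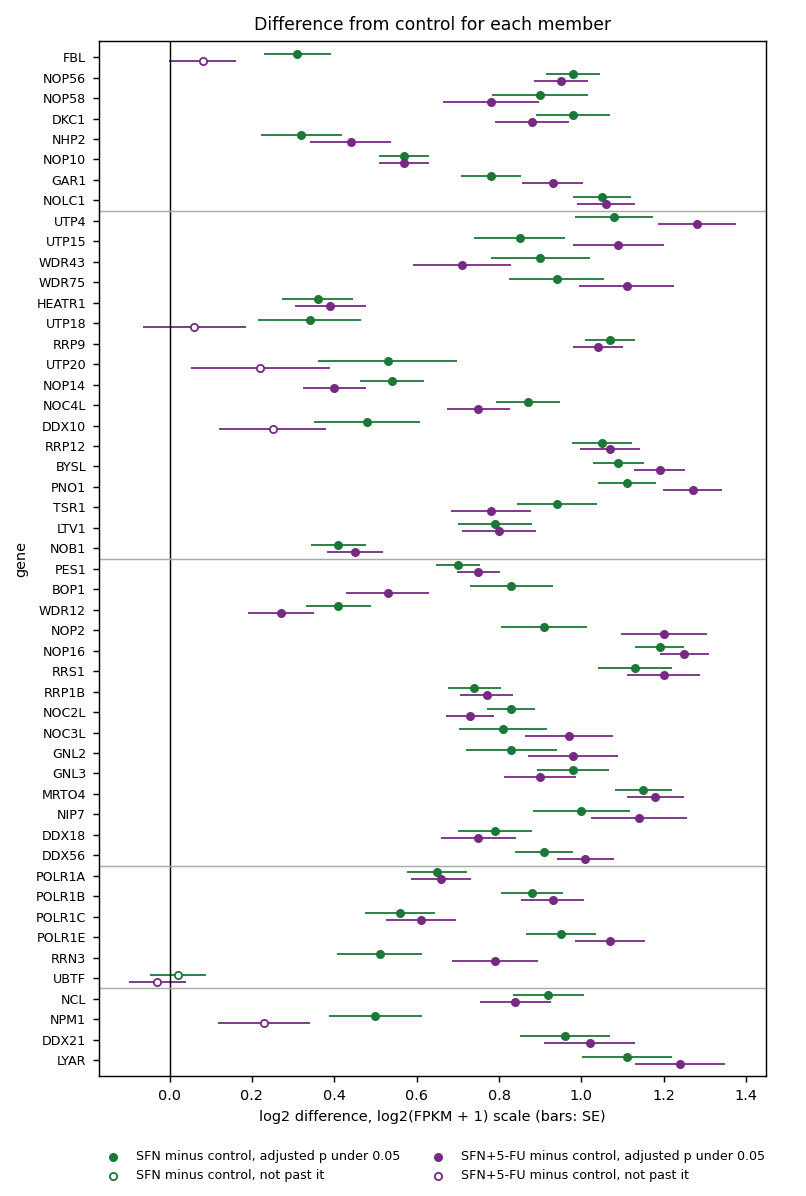
Points give the log2 difference from control for SFN and for SFN+5-FU on the log2(FPKM + 1) scale, bars give the SE from the limma fit, and filled points passed an adjusted p of 0.05. The SFN points run from 0.02 for UBTF to 1.19 for NOP16; UBTF is open in both comparisons, and FBL, UTP18, UTP20, DDX10 and NPM1 are open for SFN+5-FU.

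The promoter windows of these genes were examined for shared short motifs. The motif shares below describe the fixed list of genes and do not depend on the treatment. RefSeq windows (build GRCh38.p14, 250 bases before to 50 bases after the gene start) were matched by symbol for 42 of the 50 genes; NOP58, NOLC1, RRP12, BOP1, RRS1, RRP1B, DDX18 and POLR1E had none. The canonical E-box CACGTG, the sequence that MYC-MAX dimers and other helix-loop-helix factors recognise, was present in 16 of the 42 windows (38.1%), in 7.43% of all 27305 windows of this length and in 10.5% of the 9236 windows of tested genes. It is its own reverse complement, so both strands are covered. Of its 18 occurrences in these windows 16 (88.9%) began between 20 bases before and 40 bases after the start, compared with 21.1% of the 1102 occurrences in windows of tested genes; these limits were chosen after the positions were seen. The other motifs searched, on both strands and with overlaps between motifs allowed, were TGCGCA (33.3% of these windows and 14.0% of those of tested genes), CCAAT (42.9% and 36.7%) and GGAAG (85.7% and 77.1%). As a description, the median log2 difference of SFN from control was 0.82 over the 16 genes with it and 0.86 over the 26 without it, and that of SFN+5-FU from control was 0.88 and 0.82. These are letter matches, and binding was not measured. A link between the E-box and the rise was not tested.

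**Figure D3:**
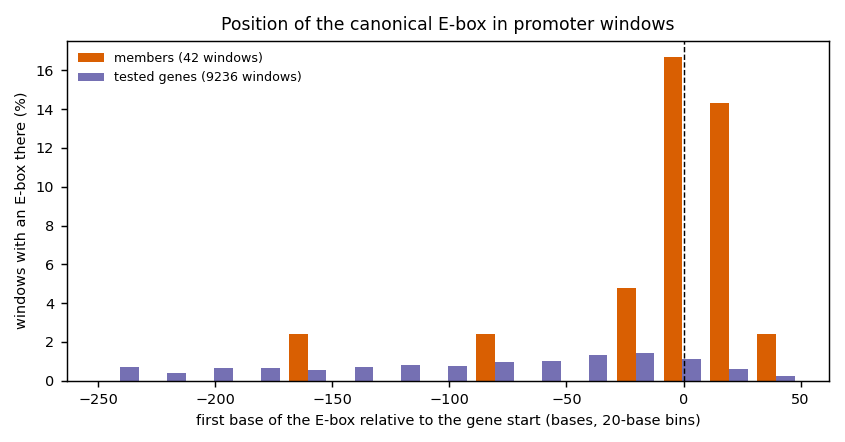
Bars give the percentage of promoter windows with a canonical E-box beginning in each 20-base bin, for the 42 windows of these genes and the 9236 windows of tested genes; position 0 (dashed line) is the gene start. The bars of these genes are highest in the bins from -10 to 9 (16.7%) and 10 to 29 (14.3%), where those of tested genes are at 1.10% and 0.595%.

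The windows below are shown from 250 bases before to 30 bases after the start, 5′ to 3′ on the gene's strand, with each E-box in capitals. They belong to the 4 genes with the largest SFN rise among those with an E-box wholly inside this span, to FBL, which has an E-box and rose least among the 16, and to UBTF, which has none and did not pass the test. Of the 26 genes without an E-box 25 rose with SFN, as did all 16 with one. NOP16, with the largest SFN difference of the 50 (1.19), is among those without.
MRTO4 (chr1:19251555-19251834, plus strand): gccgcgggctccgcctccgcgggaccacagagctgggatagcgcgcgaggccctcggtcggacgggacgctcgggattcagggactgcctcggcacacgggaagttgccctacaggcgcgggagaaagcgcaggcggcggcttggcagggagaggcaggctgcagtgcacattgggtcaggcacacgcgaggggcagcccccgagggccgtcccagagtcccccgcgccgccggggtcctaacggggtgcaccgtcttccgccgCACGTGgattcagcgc
PNO1 (chr2:68157638-68157917, plus strand): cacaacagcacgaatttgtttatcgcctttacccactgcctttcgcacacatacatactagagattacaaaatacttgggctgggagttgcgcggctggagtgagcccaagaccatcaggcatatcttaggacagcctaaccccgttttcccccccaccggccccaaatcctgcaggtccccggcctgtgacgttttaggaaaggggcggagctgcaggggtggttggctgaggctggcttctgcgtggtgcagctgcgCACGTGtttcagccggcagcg
UTP4 (chr16:69132399-69132678, plus strand): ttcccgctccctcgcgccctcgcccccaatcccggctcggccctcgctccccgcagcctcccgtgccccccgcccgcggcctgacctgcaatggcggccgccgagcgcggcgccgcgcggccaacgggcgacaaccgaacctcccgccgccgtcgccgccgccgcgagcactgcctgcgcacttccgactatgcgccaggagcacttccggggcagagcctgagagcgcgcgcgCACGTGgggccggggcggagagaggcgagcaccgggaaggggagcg
RRP9 (chr3:51941875-51942154, minus strand): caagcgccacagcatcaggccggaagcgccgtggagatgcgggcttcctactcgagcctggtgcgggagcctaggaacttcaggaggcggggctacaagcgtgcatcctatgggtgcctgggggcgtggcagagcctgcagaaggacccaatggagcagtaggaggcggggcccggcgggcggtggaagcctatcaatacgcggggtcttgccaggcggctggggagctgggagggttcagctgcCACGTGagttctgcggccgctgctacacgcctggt
FBL (chr19:39846350-39846629, minus strand): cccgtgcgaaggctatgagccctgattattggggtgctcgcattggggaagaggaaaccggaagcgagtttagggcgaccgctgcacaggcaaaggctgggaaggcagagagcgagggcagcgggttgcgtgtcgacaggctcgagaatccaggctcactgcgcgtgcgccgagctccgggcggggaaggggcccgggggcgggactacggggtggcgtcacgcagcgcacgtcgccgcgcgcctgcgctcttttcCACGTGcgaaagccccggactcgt
UBTF (chr17:44220853-44221132, minus strand): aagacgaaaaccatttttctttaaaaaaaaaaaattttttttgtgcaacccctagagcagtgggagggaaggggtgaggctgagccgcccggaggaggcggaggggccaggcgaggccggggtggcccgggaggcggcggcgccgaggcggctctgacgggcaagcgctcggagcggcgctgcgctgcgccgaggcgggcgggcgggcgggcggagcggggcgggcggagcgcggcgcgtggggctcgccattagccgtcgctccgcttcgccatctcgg
Counting the first base of the gene as position 0, the E-box began at 14 in MRTO4, at 9 in PNO1, at -16 in UTP4, at -5 in RRP9 and at 6 in FBL. The 280 bases shown were 72.9% G and C in MRTO4, 57.5% in PNO1 and 70.0% in UBTF.

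The snoRNP core holds the proteins that modify ribosomal RNA. With SFN all 8 genes rose (median log2 difference 0.84), and with SFN+5-FU 7 rose, the exception being FBL (median 0.83). Among all tested genes 27.5% rose with SFN and 38.3% with SFN+5-FU. In box C/D particles, NOP56 and NOP58 form the scaffold and FBL, fibrillarin, is the methyltransferase. NOP56 read 33.6, 33.2 and 38.1 FPKM in control, 68.4, 69.1 and 72.8 with SFN and 69.1, 68.8 and 67.6 with SFN+5-FU. NOP58 read 18, 14.6 and 19.8 FPKM in control, 30.2, 33.03 and 36.9 with SFN and 32.1, 31.9 and 27.9 with SFN+5-FU. Both scaffold genes were higher in every treated library than in any control library, with log2 differences of 0.98 and 0.90 with SFN (adjusted p = 1.7e-05 and 0.00031). FBL, the most abundant of the 8, read 97.8, 99.1 and 98.7 FPKM in control, 133, 107 and 128 with SFN and 108, 100.5 and 104 with SFN+5-FU. Its treated values lie above control in all 6 libraries, but SFN replicate 2 is with the SFN+5-FU libraries and below the other SFN libraries. Its log2 difference was 0.31 with SFN (SE 0.0809, adjusted p = 0.0113) and 0.08 with SFN+5-FU (adjusted p = 0.415). The SFN call was lost with median-of-ratios scaling, quantile normalization and the GC and length correction, with and without a replicate block (adjusted p up to 0.0783, over a range from 1.98e-05). FBL moved less than its partners, and the ratio of FBL to NOP56 in FPKM was 2.83 ± 0.21 in control, 1.75 ± 0.2 with SFN and 1.52 ± 0.0521 with SFN+5-FU (mean ± SD, n = 3 libraries). The lowest control ratio was 2.59 and the highest treated ratio 1.95.

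In box H/ACA particles, DKC1 (dyskerin) is the pseudouridine synthase and NHP2, NOP10 and GAR1 are its partners, which also sit on telomerase RNA. DKC1 read 14.96, 16.1 and 17.3 FPKM in control, 31.7, 30.1 and 36.8 with SFN and 32.4, 30.8 and 28.5 with SFN+5-FU. GAR1 read 12.6, 12.9 and 13.9 FPKM in control, 21.3, 24.2 and 24.3 with SFN and 25.3, 27.3 and 25.4 with SFN+5-FU. NOP10 read 17.4, 19.1 and 18.5 FPKM in control, 28.9, 27.01 and 27.4 with SFN and 27.02, 28.5 and 27.4 with SFN+5-FU. For these 3 genes no treated library overlapped control. Their log2 differences with SFN were 0.98, 0.78 and 0.57 (adjusted p = 5.74e-05, 6.61e-05 and 0.00012). NHP2 was the most abundant H/ACA gene and moved least, at 40.05, 42.6 and 36.7 FPKM in control, 54.5, 53.1 and 42.5 with SFN and 56.7, 52.8 and 53.8 with SFN+5-FU. SFN replicate 3 lies within the control range, so the groups overlap. The log2 difference of NHP2 was 0.32 with SFN (adjusted p = 0.0247), a call lost in 9 of 22 alternatives, among them leaving out control replicate 1, control replicate 3 or SFN replicate 1 (adjusted p = 0.0627, 0.0851 and 0.0702, over a range from 0.0032 to 0.141). With SFN+5-FU it rose by 0.44 (adjusted p = 0.00342). The ratio of NHP2 to DKC1 was 2.49 ± 0.315 in control, 1.54 ± 0.34 with SFN and 1.78 ± 0.091 with SFN+5-FU. NOLC1, a chaperone that binds both classes of snoRNP, read 38.1, 39.9 and 42.7 FPKM in control, 79.99, 86.5 and 86.3 with SFN and 89.5, 87.6 and 78.8 with SFN+5-FU, and it had the largest SFN difference of the 8 (1.05, SE 0.0713, adjusted p = 1.79e-05).

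The small-subunit processome is the particle that forms on the nascent precursor around the U3 snoRNP. Of the 17 genes in this role group all 17 rose with SFN (median log2 difference 0.87) and 14 rose with SFN+5-FU (median 0.78). The 3 that did not pass with SFN+5-FU were UTP18, UTP20 and DDX10. Among all tested genes 27.5% rose with SFN and 38.3% with SFN+5-FU. UTP4, UTP15, WDR43, WDR75 and HEATR1 belong to the UTP-A complex, which binds the leading spacer of the precursor and is linked to its transcription. UTP4 read 11.7, 11.4 and 13.8 FPKM in control, 24.4, 30.4 and 26.8 with SFN and 31.6, 31.8 and 30.3 with SFN+5-FU. WDR43 read 16.5, 14.8 and 18.2 FPKM in control, 30.8, 26.98 and 37.3 with SFN and 28.9, 28.4 and 25.2 with SFN+5-FU. HEATR1 read 6.42, 5.99 and 6.24 FPKM in control, 7.79, 8.73 and 8.25 with SFN and 9.21, 8.92 and 7.39 with SFN+5-FU. In all 3 genes each treated library was above each control library, although the order of the treated groups differs: UTP4 was highest with SFN+5-FU and WDR43 in SFN replicate 3. With SFN the log2 difference was 1.08 for UTP4, 0.90 for WDR43 and 0.36 for HEATR1 (adjusted p = 4.88e-05, 0.000376 and 0.0078). UTP15 and WDR75 rose by 0.85 and 0.94 with SFN and by 1.09 and 1.11 with SFN+5-FU.

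RRP9, the U3-specific protein, read 19.2, 20.2 and 20 FPKM in control, 44.01, 40.1 and 44.02 with SFN and 43.2, 40.4 and 42 with SFN+5-FU. Its SFN difference of 1.07 had an adjusted p of 8.69e-06, and its treated groups lie close together. NOP14 and NOC4L bind each other in the processome. NOP14 read 14.7, 16.1 and 15.2 FPKM in control, 22.6, 20.9 and 24.6 with SFN and 21.8, 20.4 and 19.3 with SFN+5-FU. NOC4L read 8.39, 8.54 and 9.94 FPKM in control, 16.8, 16.4 and 18.2 with SFN and 15.2, 15.8 and 16.3 with SFN+5-FU. Neither gene overlapped control, with SFN differences of 0.54 and 0.87 (adjusted p = 0.000518 and 5.17e-05), and for NOC4L every SFN+5-FU library was below every SFN library, as for 10.3% of all tested genes. UTP18, a WD-repeat protein of the UTP-B complex, read 22.1, 22.6 and 23.4 FPKM in control, 30.8, 22.9 and 34.4 with SFN and 25.1, 23.6 and 22.7 with SFN+5-FU. UTP20, a very large repeat protein, read 3.83, 3.43 and 3.95 FPKM in control, 6.41, 4.12 and 7.40 with SFN and 4.81, 5.01 and 3.82 with SFN+5-FU. DDX10, an RNA helicase and the least abundant of the 50 genes, read 1.86, 1.64 and 1.78 FPKM in control, 3.14, 2.08 and 3.50 with SFN and 2.18, 2.38 and 2.26 with SFN+5-FU. In these 3 genes SFN replicates 1 and 3 were high while SFN replicate 2 lay near the SFN+5-FU libraries. UTP18 had a log2 difference of 0.34 with SFN (adjusted p = 0.0488), and the groups overlapped. That call was lost in 17 of 22 alternatives, among them leaving out any 1 library other than SFN replicate 2 (adjusted p from 0.0657 to 0.152, within a range from 1.7e-05 to 0.332 over all alternatives). Without SFN replicate 2 it was 0.50. UTP20 differed by 0.53 (adjusted p = 0.0273), lost in 8 of 21 alternatives, among them leaving out any control library, SFN replicate 1 or SFN replicate 3 (adjusted p up to 0.089, over a range from 3.12e-05), and it was 0.74 without SFN replicate 2. DDX10 differed by 0.48 (adjusted p = 0.0123). With SFN+5-FU the differences of UTP18, UTP20 and DDX10 from control were 0.06, 0.22 and 0.25 (adjusted p = 0.669, 0.268 and 0.117). DDX10 passed the threshold there without SFN replicate 2, with library weights and with only the groups compared (lowest adjusted p = 0.0065, highest 0.296), and UTP20 passed with library weights (adjusted p = 0.0206). SFN replicate 2 is in neither group of this comparison and enters it only through the spread shared by all groups in the fit.

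The remaining genes of this role group act on the released pre-40S particle. PNO1 holds the end of the small-subunit RNA that the nuclease NOB1 cuts, and BYSL, TSR1, LTV1 and RRP12 accompany the particle on its way to the cytoplasm. PNO1 read 10.4, 10.7 and 12.1 FPKM in control, 23.99, 25.3 and 25.7 with SFN and 28.9, 28.4 and 27 with SFN+5-FU. BYSL read 11.4, 11.1 and 10.2 FPKM in control, 23.5, 24.98 and 24.8 with SFN and 26.6, 25.4 and 26.5 with SFN+5-FU. TSR1 read 19.9, 21.02 and 20.7 FPKM in control, 40, 35.3 and 46.4 with SFN and 35.4, 38.9 and 33.8 with SFN+5-FU. PNO1 and BYSL were higher in each SFN+5-FU library than in each SFN library, as were 10.6% of all tested genes, whereas SFN replicate 3 held the highest TSR1 value. PNO1 had the largest SFN difference of the 17 (1.11, SE 0.0707, adjusted p = 1.48e-05), followed by BYSL (1.09) and UTP4. RRP12 and LTV1 rose by 1.05 and 0.79 with SFN and by 1.07 and 0.80 with SFN+5-FU. NOB1, the nuclease itself and the most abundant gene of this role group, read 33.5, 35.7 and 30.3 FPKM in control, 43.1, 45.6 and 44.4 with SFN and 45.2, 46.1 and 45.3 with SFN+5-FU, a smaller rise of 0.41 (adjusted p = 0.00105).

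Large-subunit assembly was the role group in which every gene passed the test in both comparisons with control. With SFN 15 of 15 rose (median log2 difference 0.83) and with SFN+5-FU 15 of 15 (median 0.97), where 27.5% and 38.3% of all tested genes rose. NOP16, a component of early pre-60S particles, read 12.9, 14.3 and 14.5 FPKM in control, 33.05, 32.97 and 32.6 with SFN and 35.03, 34.1 and 33.8 with SFN+5-FU. RRS1, which helps to bring in the 5S particle, read 11.3, 13.8 and 13.2 FPKM in control, 27.04, 29.8 and 29.9 with SFN and 32.6, 31.1 and 28.1 with SFN+5-FU. MRTO4, a placeholder for a stalk protein of the mature ribosome, read 19.2, 20.6 and 22.6 FPKM in control, 46.5, 45.9 and 49.3 with SFN and 47.5, 49.9 and 47.4 with SFN+5-FU. These 3 genes had the largest SFN differences of the group, and their treated libraries all lay well above control. The log2 difference was 1.19 for NOP16 (SE 0.06, adjusted p = 6.12e-06), 1.15 for MRTO4 (adjusted p = 1.09e-05) and 1.13 for RRS1 (adjusted p = 3.08e-05). NOP2, a ribosomal RNA methyltransferase, read 21.4, 21.6 and 23.3 FPKM in control, 35.9, 49.8 and 42.4 with SFN and 52.96, 50.8 and 52.7 with SFN+5-FU. Its SFN libraries were spread, with replicate 2 beside the SFN+5-FU libraries. Every SFN+5-FU value was above every SFN value, as for 10.6% of all tested genes. The log2 difference of NOP2 from control was 0.91 with SFN and 1.20 with SFN+5-FU (adjusted p = 0.000171 and 2.55e-05).

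PES1, BOP1 and WDR12 form the PeBoW complex, which is needed for maturation of the large-subunit RNAs. PES1 read 18.6, 18.5 and 17.99 FPKM in control, 29.6, 31 and 30.8 with SFN and 32.04, 31.4 and 31.1 with SFN+5-FU. BOP1 read 13.7, 14.9 and 14.1 FPKM in control, 29.7, 21.8 and 27.3 with SFN and 20.8, 21.6 and 20.8 with SFN+5-FU. WDR12 read 4.98, 5.13 and 5.04 FPKM in control, 7.43, 6.19 and 7.52 with SFN and 6.60, 6.08 and 6.18 with SFN+5-FU. All 3 rose in both comparisons, and WDR12 had the smallest SFN difference of the 15 genes (0.41, adjusted p = 0.00274). BOP1 was lower in every SFN+5-FU library than in every SFN library, as were 10.3% of all tested genes. PES1 was higher, as were 10.6%, but only by 31.06 against 31.00 FPKM at the nearest. Neither difference between these groups passed (limma, adjusted p = 0.134 for BOP1 and 0.537 for PES1). With SFN+5-FU WDR12 rose by 0.27 (adjusted p = 0.0149), but it did not pass once SFN+5-FU replicate 1 was left out (adjusted p = 0.0592), with median-of-ratios scaling and with mitochondrial transcripts left out (a range from 0.000243 to 0.121). The PES1 to WDR12 ratio in FPKM was 3.64 ± 0.0874 in control, 4.36 ± 0.563 with SFN and 5.01 ± 0.154 with SFN+5-FU (n = 3 libraries). The partner proteins NOC2L and NOC3L and the nucleolar GTPases GNL2 and GNL3 (nucleostemin) rose by 0.83, 0.81, 0.83 and 0.98 with SFN. NOC2L read 30.1, 30.9 and 28.7 FPKM in control, 56.4, 51.4 and 53.9 with SFN and 50.4, 50.99 and 49.5 with SFN+5-FU. GNL3 read 26.5, 24.4 and 26.2 FPKM in control, 48.4, 47.96 and 59.3 with SFN and 50.8, 48.98 and 46.6 with SFN+5-FU. NOC2L was lower in each SFN+5-FU library than in each SFN library, by a small margin, a separation that 10.3% of all tested genes showed. The treated groups of GNL3 overlap. DDX18 and DDX56, both RNA helicases, rose by 0.79 and 0.91, the pre-60S proteins RRP1B by 0.74 and NIP7 by 1.00 with SFN. DDX18 read 13.2, 12.2 and 13.5 FPKM in control, 21.4, 22.4 and 26.01 with SFN and 23.1, 23.96 and 20.4 with SFN+5-FU, with its highest value in SFN replicate 3.

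The RNA polymerase I genes rose by less in the median, 0.60 with SFN and 0.73 with SFN+5-FU. In each comparison 5 of 6 rose, where 27.5% and 38.3% of all tested genes did. POLR1A and POLR1B encode the largest subunits, which form the active centre. POLR1A read 3.26, 3.26 and 3.72 FPKM in control, 6.19, 5.57 and 5.94 with SFN and 6.03, 6.17 and 5.73 with SFN+5-FU. POLR1B read 6.25, 6.70 and 6.98 FPKM in control, 12.2, 13.1 and 13.8 with SFN and 14.4, 13.7 and 12.6 with SFN+5-FU. POLR1E, a subunit specific to this polymerase, read 9.12, 10.3 and 10.1 FPKM in control, 18.6, 22.7 and 18.9 with SFN and 22.2, 22.1 and 20.99 with SFN+5-FU. No treated library overlapped control in these 3 genes, which had the largest SFN differences of the 6 at 0.65, 0.88 and 0.95 (adjusted p = 0.000159, 4.65e-05 and 5.23e-05). POLR1C, shared with RNA polymerase III, rose by 0.56 with SFN and by 0.61 with SFN+5-FU. RRN3 is the growth-regulated factor that recruits the polymerase to its promoter, and it read 11.2, 11.1 and 11.4 FPKM in control, 14.2, 19.6 and 15.99 with SFN and 20.3, 21.5 and 19.02 with SFN+5-FU. SFN replicate 2 is again beside the SFN+5-FU libraries, and RRN3 rose by 0.51 with SFN and by 0.79 with SFN+5-FU (adjusted p = 0.00348 and 0.000195). UBTF, which keeps the ribosomal RNA genes in an open form and works with the promoter factors, read 11.1, 11.1 and 11.6 FPKM in control, 11.3, 11.6 and 11.4 with SFN and 12.1, 10.3 and 10.8 with SFN+5-FU. The 3 groups of UBTF overlap. Its log2 difference was 0.02 with SFN (SE 0.0686, adjusted p = 0.816) and -0.03 with SFN+5-FU (SE 0.0686, adjusted p = 0.743).

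The 4 nucleolar proteins with several roles include the most abundant transcript of the 50. NPM1, nucleophosmin, which organises the outer layer of the nucleolus, read 105, 103 and 110.0 FPKM in control, 163, 123 and 169 with SFN and 124, 132 and 117 with SFN+5-FU. NCL, nucleolin, which binds nascent ribosomal RNA and chromatin, read 54.9, 55.5 and 59.5 FPKM in control, 103, 101 and 121 with SFN and 106, 107 and 92.99 with SFN+5-FU. Both were above control in every treated library, but NPM1 was highest in SFN replicates 1 and 3 and lower in the other treated libraries. The log2 difference with SFN was 0.50 for NPM1 (adjusted p = 0.00574) and 0.92 for NCL (adjusted p = 6.26e-05). The NPM1 call was lost with the GC and length correction, with and without a replicate block (adjusted p = 0.0929 and 0.104, over a range from 2.74e-06). With SFN+5-FU NPM1 differed by 0.23 (adjusted p = 0.103), and it passed without SFN replicate 2, with only the groups compared and with library weights (adjusted p = 0.0034, 0.00429 and 0.00102, over a range up to 0.64). Its difference was also 0.23 without SFN replicate 2, which enters this comparison only through the spread shared by all groups in the fit. The ratio of NPM1 to NCL was 1.87 ± 0.0335 in control, 1.39 ± 0.183 with SFN and 1.22 ± 0.0483 with SFN+5-FU. DDX21, a helicase that joins polymerase I transcription to RNA processing, read 11.4, 10.6 and 12.2 FPKM in control, 20.2, 23.8 and 25.7 with SFN and 25.4, 26.2 and 21.1 with SFN+5-FU. LYAR, a zinc finger protein of pre-ribosomes, read 14.9, 13.7 and 17.4 FPKM in control, 30.8, 38.6 and 33.6 with SFN and 38.6, 39.6 and 33.9 with SFN+5-FU. Both rose in both comparisons, DDX21 by 0.96 and 1.02 and LYAR by 1.11 and 1.24, with no overlap with control.

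**Figure D4:**
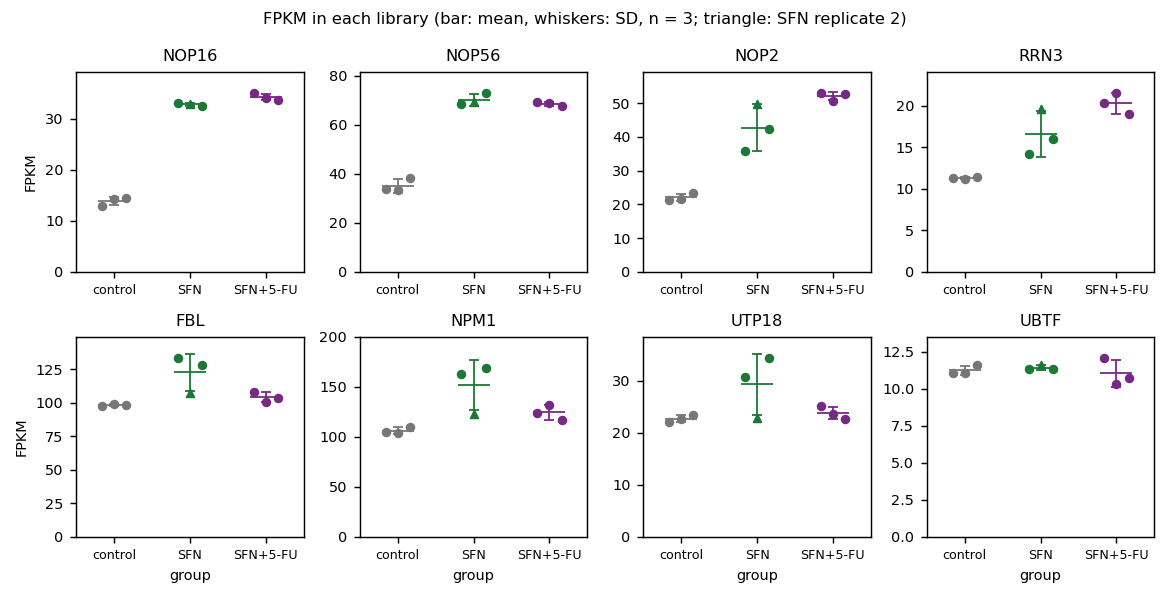
FPKM in each library for 8 genes, with the group mean (bar), SD (whiskers, n = 3) and SFN replicate 2 drawn as a triangle. NOP16 and NOP56 form 2 levels, control and treated; in NOP2 and RRN3 the triangle sits above the other SFN libraries, in FBL, NPM1 and UTP18 below them, and the UBTF groups overlap.

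The comparison of SFN+5-FU with SFN sets the combined treatment beside SFN; no source used here states whether both groups had the same SFN dose. None of the 50 genes passed in either direction (limma), and of all tested genes 0% rose and 0.00790% (1 gene) fell. At an unadjusted p under 0.05, 6 of the 50 and 3982 of the 12662 tested genes passed. The median log2 difference of the 50 genes was 0.03, with a range from -0.31 (UTP20) to 0.29 (NOP2), beside 0.03 over all tested genes. Every SFN+5-FU library was above every SFN library for 6 of the 50 (GAR1, BYSL, PNO1, PES1, NOP2 and NOP16) and below it for 3 (NOC4L, BOP1 and NOC2L), where 10.6% and 10.3% of all tested genes showed the same, so these separations are near the background. This comparison depends on the library labelled SFN replicate 2: it lay nearer to the SFN+5-FU mean than to the mean of SFN replicates 1 and 3 for 41 of the 50 genes (82.0%), as for 82.6% of all tested genes. Without it 5 of the 50 were higher with SFN+5-FU and 10 lower, where 29.8% of all tested genes rose and 21.4% fell. The 10 lower genes are 20% of the 50, near that background, and the 5 higher genes are 10%. With library weights, which lower the influence of a library that departs from its group, 6 of the 50 were higher and 15 lower, against 33.4% and 25.3% of all tested genes.

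The 10 genes that fell without SFN replicate 2 were UTP20 (-0.51), UTP18 (-0.43), BOP1 (-0.42), NPM1 (-0.41), DDX10 (-0.40), FBL (-0.33), WDR43 (-0.30), TSR1 (-0.25), WDR12 (-0.22) and NOP14 (-0.19), given as log2 differences. Their adjusted p ran from 0.000426 for BOP1 to 0.0422 for WDR43. The 5 that rose were NOP2 (0.41), RRN3 (0.40), UTP4 (0.28), WDR75 (0.28) and POLR1E (0.21), with adjusted p from 0.00126 for RRN3 to 0.0472 for WDR75. Among the UTP-A genes the calls did not share a direction. UTP4 and WDR75 rose and WDR43 fell, while UTP15 (0.30, adjusted p = 0.0507) and HEATR1 (0.07, adjusted p = 0.52) did not pass. In the PeBoW complex BOP1 and WDR12 both fell, and PES1 (0.06, adjusted p = 0.305) did not pass. The fit without SFN replicate 2 compares 3 libraries with 2. That library is singled out because of its likeness to the SFN+5-FU libraries, seen in these same values. For all 15 genes called here it lay nearer to the SFN+5-FU mean than to the mean of SFN replicates 1 and 3. Leaving it out therefore widens these differences, and the calls are descriptions.

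**Figure D5:**
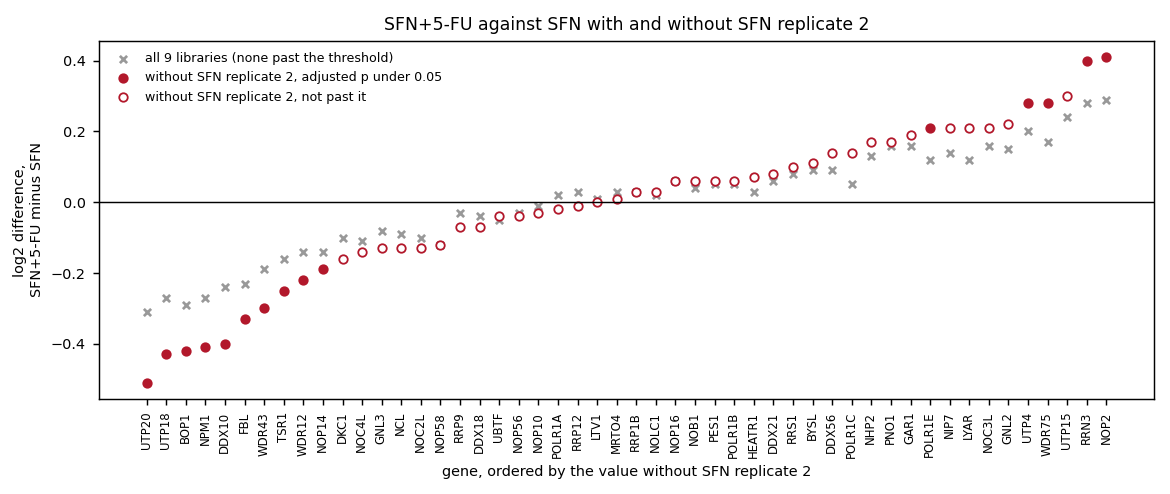
Log2 difference of SFN+5-FU from SFN for each of the 50 genes, ordered by the value without SFN replicate 2 (circles, filled where the adjusted p is under 0.05), with the value over all 9 libraries as crosses. Leaving that library out moves the ends of the order outward, to -0.51 for UTP20 and 0.41 for NOP2, while the genes in the middle stay near 0.

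Most genes of 5 further lists moved in the same direction. In these lists of biogenesis factors, 120 of 137 tested genes rose and 3 fell with SFN (median log2 difference 0.63), and 117 rose and 5 fell with SFN+5-FU (median 0.70), against the shares of all tested genes given above. Of 45 other small-subunit factors 42 rose and none fell with SFN (median 0.65), and NOL6, a processome protein, rose most, from 5.93 ± 0.646 to 15.9 ± 0.56 FPKM (mean ± SD, n = 3; log2 difference 1.29, adjusted p = 8.97e-06). Of 54 tested large-subunit factors (AFG2A and AFG2B were not matched in the table) 47 rose and 2 fell (median 0.64), and NIFK, a nucleolar partner of Ki-67, rose most, from 14.9 ± 1.23 to 34.9 ± 7.96 FPKM. The 2 that fell were NOP53, a late 60S factor, from 53.2 ± 4.01 to 34.3 ± 5.68 FPKM with SFN and 26.5 ± 1.86 with SFN+5-FU, and EFL1, the GTPase that helps to release the anti-association factor EIF6, from 4.18 ± 0.234 to 3.04 ± 0.0751 FPKM. WDR18 was also lower with SFN+5-FU, at 8.79 ± 0.435 FPKM against 12.7 ± 0.455 in control, a call lost when any 1 library of either group was left out (adjusted p up to 0.0982, over a range from 2.79e-05).

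Among 16 other subunits and factors of RNA polymerase I 13 rose and 1 fell in each comparison with control (medians 0.40 and 0.63). POLR1G, the partner of POLR1E in the polymerase, read 3.78, 3.85 and 4.14 FPKM in control, 14.5, 19.1 and 15.8 with SFN and 17.1, 18.1 and 18.3 with SFN+5-FU. It had the largest SFN difference of any gene in these lists, 1.82 (SE 0.095, adjusted p = 7.05e-06), with no overlap; its transcription unit overlaps that of ERCC1 on the opposite strand, and whether the authors counted by strand is not given in the sources used here. POLR1D, a subunit shared with RNA polymerase III, was 11 ± 0.771 FPKM in control, 9.29 ± 0.107 with SFN and 8.96 ± 0.314 with SFN+5-FU. Its SFN decrease (adjusted p = 0.0227) was lost without control replicate 1, control replicate 2 or SFN replicate 3, among 5 of 22 alternatives (highest adjusted p 0.0947, lowest 0.00102). All 10 subunits of RNase MRP and RNase P, which cut ribosomal and transfer RNA precursors, rose with SFN and with SFN+5-FU (medians 0.73 and 0.90), RPP40 most, from 4.05 ± 0.0929 to 8.88 ± 2.72 and 13 ± 0.902 FPKM. Of 12 tested snoRNP assembly factors 8 rose and none fell with SFN (median 0.37), led by NUFIP1 (0.71), and 10 rose and 1 fell with SFN+5-FU (median 0.54). The 1 that fell was PIH1D1, a subunit of the R2TP co-chaperone, with a log2 difference of -0.32 (adjusted p = 0.00511).

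Subunits of other polymerases moved as well. Among all tested genes 27.5% rose and 22.5% fell with SFN, and 38.3% rose and 28.0% fell with SFN+5-FU. Of 11 RNA polymerase III subunits 10 rose and 1, POLR3GL, fell in each comparison (medians 0.48 and 0.71); POLR3K rose most with SFN (0.94), and the SFN decrease of POLR3GL (-0.32, adjusted p = 0.0133) was lost without control replicate 1 (adjusted p = 0.0513, lowest 0.00166). Of 7 core subunits of RNA polymerase II 5 rose and none fell in each comparison (medians 0.48 and 0.74), POLR2D most with SFN (0.58). The other neighbours of the pathway named below did not rise in this way. RPL5 and RPL11, ribosomal proteins of the 5S particle, and HEATR3, which helps to assemble it, differed from control by 0.02, 0.04 and 0.07 with SFN and by -0.13, -0.03 and 0.06 with SFN+5-FU, none past the threshold (lowest adjusted p = 0.127). MDM2, the ubiquitin ligase that this particle binds, differed by 0.03 and 0.06 and did not pass either. CDKN1A, a cell cycle inhibitor, fell with SFN (-0.45, adjusted p = 0.0164), which did not pass once SFN replicate 3 was left out (adjusted p = 0.055, lowest 3.38e-05), and differed by -0.07 with SFN+5-FU.

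MYC read 46.5, 49.1 and 44.3 FPKM in control, 92.4, 91.8 and 97.1 with SFN and 96.3, 92.8 and 88.5 with SFN+5-FU. It rose by 0.99 with SFN and by 0.97 with SFN+5-FU on the log2 scale (adjusted p = 1.21e-05 and 7.67e-06), with the control and treated libraries clearly apart. A part of MYC in the rise of the 50 genes was not tested. Levels within the 50 genes spanned a wide range, from a mean of 2.31 FPKM over the 9 libraries for DDX10 to 127 FPKM for NPM1. On the log2(FPKM + 1) scale, which understates the change of low genes, the size of the change did not follow the level. Across the 50 genes the Spearman correlation of control FPKM with the SFN difference was 0.0476 and with the SFN+5-FU difference -0.0934; genes measured in the same libraries are not independent, so these are descriptions.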

How the data were processed

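Poly(A) RNA libraries prepared with dUTP strand marking were sequenced in pairs, per the labels' protocols. The deposited unit is FPKM per gene and library, written to 2 decimals; the submitters' processing notes name fastp, StringTie and edgeR without versions, and no source used here gives the aligner, build or annotation. Ensembl identifiers were paired with symbols through a gene name table. Genes with a mean of at least 1 FPKM (12662) were fitted as log2(FPKM + 1) with limma 3.58.1 (R 4.3.3; variance trend, all 9 libraries in 1 fit, 6 residual degrees of freedom), and p-values were Benjamini-Hochberg adjusted within each comparison over all tested genes. The script was tested on simulated data, in which few genes changed, the spread was capped and no library departed from its group, unlike here. Differences on this scale understate the change of low genes, and the depth behind the FPKM is unknown. Every one of the 50 genes is named; values for every library follow a rule on the largest and smallest SFN difference in each role group, the highest FPKM, and a direction unlike most of the 50, and some further genes are given as partners in a complex. In each further list the gene with the largest SFN difference and any called gene against its list are named; in the last list every gene is named except 1 that is not reported here, and its counts are not given. The genes, lists and rules were chosen with earlier results of these data known. Alternatives were 13 other settings and leaving out each of the 9 libraries.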

Additional observations from a re-analysis of the deposited data

How the results depend on the processing

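Under 13 other settings and with each of the 9 libraries left out, the direction of the medians from control and of the count of called genes did not turn. Leaving out 1 library gave 46 to 49 of the 50 genes higher with SFN, 43 to 46 with SFN+5-FU, and none lower in either. Of the 12662 tested genes 2590 to 3896 were then higher with SFN and 4183 to 5496 with SFN+5-FU. For SFN+5-FU against SFN, 0 to 5 of the 50 were higher and 0 to 10 lower. The highest counts came without SFN replicate 2, where 29.8% of all tested genes were higher and 21.4% lower. With 1 library left out, the median log2 differences of the 50 genes ran from 0.81 to 0.92, from 0.79 to 0.88 and from 0.00 to 0.05. Under the other settings 45 to 49 genes of the 50 were higher with SFN. The 45 came with median-of-ratios scaling, where 2977 of the 12662 tested genes were higher. With SFN+5-FU 43 to 47 were higher, the 47 with library weights, where 46.1% of all tested genes were. The median with SFN was 0.68 with a pseudocount of 5. With SFN+5-FU it was 0.67 with a pseudocount of 5, 0.71 with median-of-ratios scaling, 0.69 with quantile normalization and 0.72 with mitochondrial transcripts left out. Library weights gave 6 higher and 15 lower for SFN+5-FU against SFN, where 33.4% of all tested genes were higher and 25.3% lower. The cause was not tested. Deviations from the group means correlated from -0.143 to 0.107 between same-numbered libraries, with 1 of 9 pairs over 0.1. Between different numbers they correlated from -0.247 to 0.182, and 3 of 9 libraries correlated best with their own number. With 3 libraries a group this check could miss a shared effect. The numbers were not taken as pairs, and a replicate block is given as an alternative. With a replicate block 48, 44 and 0 of the 50 genes were higher, with medians of 0.86, 0.82 and 0.03. Of the 12662 tested genes 3295, 4710 and 0 were higher there. The unknown depth of the FPKM values, 3 libraries a group and 1 cell line limit the precision.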
